A study of Homo sapiens with 9 samples.

Results

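The class I antigen presentation genes HLA-C, HLA-E, HLA-F, B2M, TAP1, TAP2, TAPBP, PSMB8 and PSMB9 were followed across 9 Affymetrix Human Gene 1.0 ST arrays. A gene counted as measured where the array annotation gave at least 1 probe set (a set of probes summarised into 1 signal) its symbol and no other, and where it had several such probe sets the brightest by mean signal stood for it. By this rule 6 of the 9 genes were measured, B2M, TAP1, TAP2, TAPBP, PSMB8 and PSMB9, out of 18417 genes with a single-symbol probe set in the whole series. HLA-C and HLA-F were listed only on probe sets that also carry HLA-B, and no probe set was listed for HLA-E. All 9 arrays are labelled as total RNA of SK-BR-3, an established HER2-amplified breast cancer cell line described in the labels as luminal-like. The cells were stably transfected with a pcDNA plasmid (V5/His-pTOPO) that held the cDNA of tissue factor pathway inhibitor α (TFPIα), that of TFPIβ, or no insert (empty vector), and selected with puromycin by the labels and neomycin by the methods of the study, so all 3 groups share vector and selection. TFPI is an inhibitor of the start of blood coagulation, and its α and β forms are splice isoforms. Each group was 1 pool of stable cells with 3 RNA isolations, so that p-values here measure the spread between isolations of 1 pool, not between separately made lines.

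Class I molecules show peptides from inside the cell to cytotoxic T cells. The proteasome cuts proteins, and after interferon γ its catalytic subunits are replaced by those of the immunoproteasome, among them PSMB8 and PSMB9. The transporter made of TAP1 and TAP2 moves the peptides into the endoplasmic reticulum, where tapasin (TAPBP) holds the transporter and the empty class I molecule together. A heavy chain leaves for the cell surface with its peptide and its light chain, β2-microglobulin (B2M). Interferon response elements, NF-κB sites and the transactivator NLRC5 are known inputs to the promoters of these genes, and tumours often carry less of this machinery than normal tissue.

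The labels were first set against the arrays. TFPI itself had a log2 signal of 5.66, 5.81 and 5.51 in the arrays labelled TFPIα and of 5.55, 5.79 and 5.81 in those labelled TFPIβ, replicates 1 to 3, against 5.81, 6.48 and 6.45 in empty vector. The log2 difference from empty vector was -0.59 ± 0.19 (SE from the limma fit of all 9 arrays) for TFPIα and -0.53 ± 0.19 for TFPIβ, with adjusted p = 0.335 and 1.0 in limma, so this probe set was not higher in the arrays named for the gene. By the study's account the transfected cDNAs held only the coding regions and probes for TFPI read the untranslated ends of its mRNA. With PLIER, a summary that drops dim probes, the study found TFPI raised in the cells of both isoforms. It also cites earlier qRT-PCR in which TFPI mRNA was raised in both. PLIER was not run here. This probe set therefore does not check the labels, and the group names below are taken from them. ERBB2, the HER2 receptor, lay between 5.63 and 6.24, while the basal keratins KRT5 and KRT14 lay between 11.99 and 12.83. This goes against the labelled cell line, as far as signals of different genes can be compared. Not every marker ran that way. In the luminal list KRT18 lay at 9.49 to 10.76 and XBP1 at 8.85 to 9.78. In the basal list EGFR lay at 6.79 to 7.63 and KRT15 at 6.19 to 10.48. The mean log2 signal of 14 luminal and HER2 markers was 5.84 to 6.04 over the arrays and that of 7 measured basal markers 9.42 to 10.41. Of 10 leukocyte markers, 9 had a probe set and 3 were past the signal filter, while PTPRC, the pan-leukocyte antigen, stood at 2.19 to 2.28. The 3 past the filter were CD14 at 6.46 to 9.12, CD68 at 7.0 to 7.92 and NKG7 at 5.07 to 5.53. All 3 were below empty vector in each comparison, with CD14 at -0.4 ± 0.63 in TFPIα and -0.87 ± 0.63 in TFPIβ. The mean of the leukocyte list was 4.31 to 4.50 in TFPIα, 4.33 to 4.43 in TFPIβ and 4.44 to 4.68 in empty vector. That of 8 fibroblast markers was 5.13 to 5.68, 5.32 to 5.52 and 5.37 to 5.86, with 3 of its 4 genes past the filter below empty vector in each comparison (median log2 difference -0.71 in TFPIα and -0.31 in TFPIβ). Among these, DCN (decorin, a matrix proteoglycan) was at -0.90 ± 0.20 (limma unadjusted p = 0.0017, adjusted p = 0.335) and -1.26 ± 0.20 (unadjusted p = 0.000188, adjusted p = 0.665), while COL1A2, COL3A1, PDGFRB and THY1 were under the filter. The log2 signals of the 4 past it were 9.48 to 11.14 (DCN), 6.18 to 7.72 (COL1A1), 4.34 to 6.73 (FAP) and 2.82 to 5.19 (LUM). Of the 7 basal markers 6 were below empty vector in each comparison (median -0.26 and -0.14), with ITGB4, an integrin of basal cells, at -0.86 ± 0.27 (unadjusted p = 0.012, adjusted p = 0.335) in TFPIα. The basal list's mean was 9.50 to 10.19 in TFPIα, 9.42 to 10.41 in TFPIβ and 10.03 to 10.37 in empty vector. A list of 7 measured housekeeping genes had its mean at 9.71 to 9.75 in TFPIα, above the 9.42 to 9.58 of empty vector, and at 9.44 to 9.69 in TFPIβ. Array medians were 4.78 to 4.88. The part of cell identity, of other cells or of array quality in what follows was not tested.

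The promoters of these genes are shown first, since interferon-response letters are what most of them share on the sequence side. RefSeq windows of 300 bases (250 before the transcript start and 50 from it, GRCh38.p14) were at hand for 8 of the 9 genes, with 2 starts each for TAP1 and PSMB8 and so 10 windows. The core of the interferon-stimulated response element, GAAANNGAAA on either strand, was present in 6 of these windows and in 6 of the 8 genes, against 3.57% of all 35116 promoter windows in the table. In the stretches below, each written 5′ to 3′ on the strand of the gene, the capitals mark the letters of that core, which overlap where 2 matches stand together.
B2M, chr15:44711333-44711428 (plus strand): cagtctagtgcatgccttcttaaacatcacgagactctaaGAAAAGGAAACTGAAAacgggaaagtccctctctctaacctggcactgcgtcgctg
TAP1, chr6:32853783-32853878 (minus strand): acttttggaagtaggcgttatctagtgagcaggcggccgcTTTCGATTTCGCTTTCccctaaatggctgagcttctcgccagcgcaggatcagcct
TAP2, chr6:32838748-32838837 (minus strand): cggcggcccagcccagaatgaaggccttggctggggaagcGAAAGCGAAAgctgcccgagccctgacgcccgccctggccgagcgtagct
TAPBP, chr6:33314079-33314138 (minus strand): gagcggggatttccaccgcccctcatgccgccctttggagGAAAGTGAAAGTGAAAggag
PSMB8, chr6:32844042-32844091 (minus strand): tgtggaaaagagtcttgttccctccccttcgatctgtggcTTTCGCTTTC
HLA-F, chr6:29723238-29723327 (plus strand): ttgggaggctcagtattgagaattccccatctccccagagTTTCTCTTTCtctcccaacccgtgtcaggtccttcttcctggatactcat

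B2M, TAP1 and TAPBP each held 2 overlapping matches and TAP2, PSMB8 and HLA-F 1. With the transcript start counted as 0, the match of TAPBP began at -20, that of TAP2 at -58, that of TAP1 at -134 and that of B2M at -144, while that of PSMB8 began at -4 and ran over the start. The matches of TAP1 and PSMB8 lie at 1 of the 2 starts of each. PSMB9 and HLA-C held none in their windows. PSMB9 and TAP1 are read in opposite directions from starts 488 bases apart, and their windows share 13 bases, so the stretch printed for TAP1 also lies between these 2 genes. An NF-κB consensus, searched on both strands, was found for 4 of the 8 genes (B2M, HLA-C, TAP1 and TAPBP) against 11.3% of all windows, and the interferon γ-activated sequence TTCNNNGAA for 2 (PSMB8 and TAP1) against 7.66%. The CCAAT box was found for 5 of the 8 genes against 34.6% of windows and the GC box GGGCGG for 6 against 45.0%. These counts are of genes and the shares are of windows, and PSMB8 and TAP1 had 2 windows each. The TTCNNNGAA match of TAP1 lies at its other start, not at that of the printed stretch. In PSMB8 it lies at the start of the printed stretch. A match is a run of letters, and no binding was measured.

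**Figure D1:**
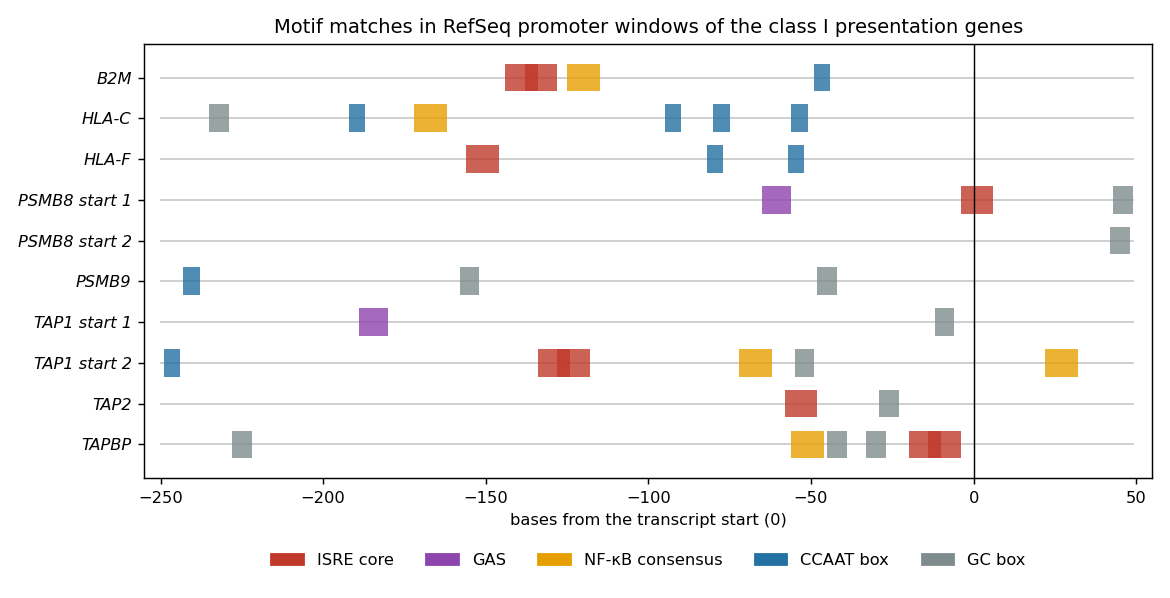
Positions of motif matches on either strand in the 10 promoter windows of 8 class I presentation genes, in bases from the transcript start at 0, with 1 line per window. Red boxes (the interferon response core) stand in 6 windows, between -156 (HLA-F) and the start (PSMB8), and are absent from those of PSMB9 and HLA-C.

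In the arrays labelled TFPIα, 5 of the 6 measured genes had a mean log2 signal below that of empty vector, by 0.11 to 0.45, and TAP2 stood apart at 0.08 above. In the arrays labelled TFPIβ, 5 of 6 were again below, by 0.14 to 0.40, and here B2M stood apart at 0.06 above. None of the 6 passed the test in either comparison, which asked for an adjusted p under 0.05 and a fold of at least 2 in limma. The study itself counts TAP1 and PSMB8 among the genes differentially expressed with either isoform, by a one-way model and a fold of at least 2. The fit of the deposited values here did not repeat that for either gene, and the reason was not tested. Values below are log2 signals, so 1 unit is a doubling, and signals of different genes are not set against each other.

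B2M, the light chain of all class I molecules, read 11.33, 11.04 and 11.07 in TFPIα, 11.51, 11.70 and 11.29 in TFPIβ and 11.49, 11.59 and 11.26 in empty vector (replicates 1, 2 and 3, here and below). Replicates 2 and 3 of TFPIα were lower than every other array, while TFPIβ and empty vector overlapped over nearly their whole range. The log2 difference from empty vector was -0.30 ± 0.14 (SE, n = 3 and 3, limma adjusted p = 0.367) in TFPIα and 0.06 ± 0.14 (adjusted p = 1.0) in TFPIβ.

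TAP1, 1 arm of the peptide transporter, read 7.67, 7.59 and 7.68 in TFPIα, 7.75, 7.82 and 7.48 in TFPIβ and 7.89, 8.36 and 7.75 in empty vector. All 3 TFPIα arrays lay below all 3 empty vector arrays, and the SD of 0.05 among them was the narrowest of the 3 groups (0.18 in TFPIβ and 0.32 in empty vector). The log2 difference was -0.35 ± 0.16 (limma adjusted p = 0.364) in TFPIα and -0.32 ± 0.16 (adjusted p = 1.0) in TFPIβ. Empty vector replicate 2 was the highest array, and without it the differences came to -0.17 and -0.14.

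TAP2, the other arm of the transporter, had its high and low arrays in other places than TAP1. It read 6.94, 6.88 and 7.17 in TFPIα, 6.62, 6.41 and 6.96 in TFPIβ and 6.91, 6.79 and 7.05 in empty vector. Replicates 1 and 2 of TFPIβ were the lowest arrays, and in each group replicate 3 was the highest and replicate 2 the lowest. The log2 difference was 0.08 ± 0.15 (limma adjusted p = 0.829) in TFPIα and -0.26 ± 0.15 (adjusted p = 1.0) in TFPIβ, the latter at -0.13 without TFPIβ replicate 2 and -0.41 without TFPIβ replicate 3. The log2 signal of TAP2 minus that of TAP1, a quantity to be compared only between arrays, ran from -0.51 to -0.73 in TFPIα, from -0.52 to -1.42 in TFPIβ and from -0.70 to -1.57 in empty vector.

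TAPBP, which encodes the loading factor tapasin, read 8.35, 7.88 and 8.10 in TFPIα, 8.65, 8.40 and 7.87 in TFPIβ and 8.46, 8.72 and 8.44 in empty vector. The TFPIα arrays again lay below those of empty vector without overlap, while the TFPIβ arrays spread from the second highest of the 9 to the lowest. The log2 difference was -0.43 ± 0.21 (limma adjusted p = 0.374) in TFPIα and -0.23 ± 0.21 (adjusted p = 1.0) in TFPIβ, and the latter came to -0.02 without TFPIβ replicate 3, -0.15 without empty vector replicate 2 and -0.41 without TFPIβ replicate 1.

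PSMB8, a catalytic subunit of the immunoproteasome, read 8.42, 8.10 and 8.19 in TFPIα, 8.34, 8.19 and 8.09 in TFPIβ and 8.52, 8.44 and 8.10 in empty vector. Its range over 9 arrays, 0.43, was the smallest of the 6 genes, and all groups overlapped. The log2 difference was -0.11 ± 0.14 (limma adjusted p = 0.715) in TFPIα and -0.14 ± 0.14 (adjusted p = 1.0) in TFPIβ. With 1 array left out these ran from -0.03 and -0.06 (both without empty vector replicate 1) to -0.24 and -0.27 (both without empty vector replicate 3).

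PSMB9, the second of these subunits, read 7.32, 6.85 and 7.14 in TFPIα, 7.60, 6.92 and 6.90 in TFPIβ and 7.79, 7.56 and 7.30 in empty vector. Its range of 0.94 was the widest, with replicate 1 highest in every group. The log2 difference was -0.45 ± 0.22 (limma adjusted p = 0.379) in TFPIα and -0.40 ± 0.22 (adjusted p = 1.0) in TFPIβ, and the groups overlapped in both. The TFPIβ value was -0.63 without TFPIβ replicate 1, and -0.28 without TFPIβ replicate 3 or empty vector replicate 1.

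**Figure D2:**
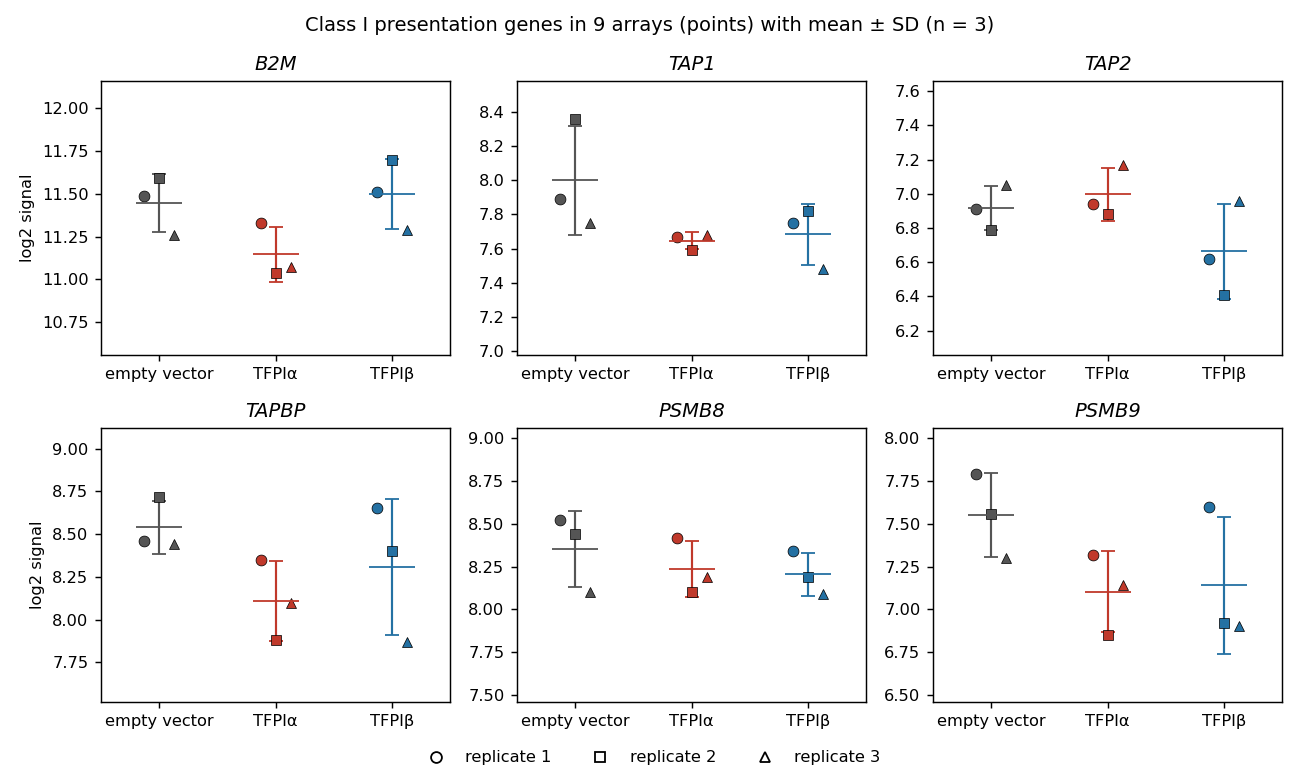
Log2 signal (y axis, of equal span in every panel and not from 0) of the 6 measured genes by group (x axis), with a point for each array shaped by replicate number and bars for the mean ± SD of 3 arrays. The TFPIα points of TAP1 and TAPBP sit below all empty vector points, and the replicate 3 point of TAP2 is the highest of its group in each of the 3 groups.

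The heavy chains could be read only through probe sets that mix genes. The brightest of 3 probe sets that carry both HLA-C and HLA-B read 10.68, 10.24 and 10.35 in TFPIα, 10.88, 10.92 and 10.18 in TFPIβ and 10.94, 11.09 and 10.72 in empty vector. The TFPIα arrays were all below those of empty vector, with a log2 difference of -0.49 ± 0.21 (limma adjusted p = 0.35), and TFPIβ differed by -0.26 ± 0.21 (adjusted p = 1.0). The brightest of 3 that carry both HLA-F and HLA-B read 8.89, 8.23 and 8.48 in TFPIα, 9.09, 9.06 and 8.33 in TFPIβ and 9.10, 9.21 and 8.54 in empty vector. Here the groups overlapped, with log2 differences of -0.42 ± 0.27 (limma adjusted p = 0.475) and -0.12 ± 0.27 (adjusted p = 1.0). Which of the heavy chains such a signal follows cannot be told apart. HLA-L, a class I pseudogene and the 1 of 6 other heavy chain genes with a probe set of its own, was near the filter at 4.49 to 5.20, with log2 differences of -0.39 ± 0.18 and -0.21 ± 0.18 (limma adjusted p = 0.364 and 1.0). It passed the filter of 5 only through arrays of empty vector and TFPIβ, so its low value in TFPIα supports no difference.

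The several probe sets of a gene gave no second measurement. Those of TAP1, PSMB8 and PSMB9, 3 each, held identical values in all arrays, and those of TAP2 and TAPBP, 3 each, had a Pearson r over the arrays of at least 0.998 and 0.99. B2M had 1.

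Counted over the 6 genes and set beside all 17482 probe sets past the signal filter, 5 were below 0 in TFPIα where 50% of probe sets were, with a median log2 difference of -0.33 against -0.00, and 5 in TFPIβ where 49.5% were, with a median of -0.25 against 0.00. Both comparisons share the empty vector arrays, so the second is no repeat of the first. Nor do the genes vary separately, since the 10 pairs without TAP2 had Pearson r of 0.419 to 0.838 over the arrays. No enrichment is read from these counts or from those of the next paragraph. In TFPIα, 2 genes (TAP1 and TAPBP) lay below empty vector without overlap, which 8.85% of probe sets did, and in TFPIβ 0 did, against 3.74%. In TFPIα, 4 genes (B2M, TAP1, TAPBP and PSMB9) were lower than empty vector at each of the 3 replicate numbers, against 18.7% of probe sets, and in TFPIβ 4 (TAP1, TAP2, PSMB8 and PSMB9) against 13.2%. The difference at replicate number 2 was the most negative of the 3 for each of B2M, TAP1, TAPBP, PSMB8 and PSMB9 in TFPIα, at -0.34 to -0.84.

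Of the 6 genes, 0 were called by limma in TFPIα, where 0.00572% of probe sets were (1, of the sodium pump subunit gene ATP1B1), 0 in TFPIβ, where 0% were, and 0 between TFPIβ and TFPIα, again against 0%. At an unadjusted p under 0.05, 0 were lower in TFPIα (5.58% of probe sets) and 0 in TFPIβ (2.23%), and the one-way model without variance moderation and the other fits called 0 as well. The count of 0 in TFPIα depends on the probe set read for TAPBP. Its brightest gave an unadjusted p of 0.0707 in limma, and its dimmer ones 0.0484 and 0.0481 (adjusted p = 0.35 each). With the replicate number as a block in limma, 3 were lower at an unadjusted p under 0.05 in TFPIα (B2M at 0.0371, TAP1 at 0.0437 and PSMB9 at 0.0136, against 8.38% of probe sets) and 2 in TFPIβ (TAP2 at 0.0242 and PSMB9 at 0.0212, against 3.51%). Their adjusted p in that limma fit was 0.193 to 0.237 in TFPIα and 0.619 to 0.637 in TFPIβ. TAPBP in TFPIα had an unadjusted p of 0.0564 in the same limma fit with its brightest probe set, and 0.044 and 0.0429 with the dimmer ones. The 95% intervals of the TFPIα differences reached from -0.95 (PSMB9) to 0.43 (TAP2) and those of TFPIβ from -0.91 (PSMB9) to 0.38 (B2M), so a change of 2-fold or more, 1 on the log2 scale, lies outside all of them.

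**Figure D3:**
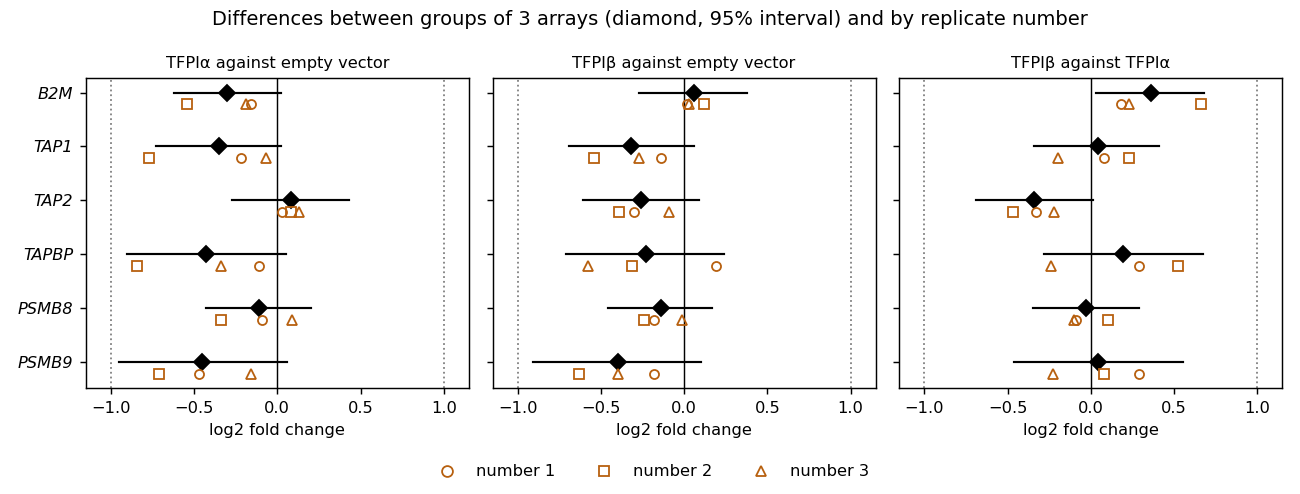
Log2 fold change (x axis) of the 6 genes in 3 comparisons, with diamonds for the difference of group means, lines for the 95% interval from limma, open symbols for the difference at each replicate number and dotted lines at a fold of 2. The intervals, from the brightest probe set of each gene, stay inside the dotted lines, and those of TFPIα and TFPIβ against empty vector all contain 0.

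The isoforms were then compared directly. B2M was higher in TFPIβ than in TFPIα by 0.36 ± 0.14 on the log2 scale (limma, 95% interval 0.03 to 0.68, unadjusted p = 0.0348, adjusted p = 0.532), with differences of 0.18, 0.66 and 0.23 at replicate numbers 1, 2 and 3. It was the 1 gene of the 6 that was higher at an unadjusted p under 0.05, against 3.94% of probe sets. With the replicate block 1 gene was higher at that threshold (B2M at 0.0186, against 6.19% of probe sets) and 1 lower (TAP2 at 0.00733, against 9.21%), both with an adjusted p of 0.32 in limma. TAP2 went the other way, at -0.34 ± 0.15 (95% interval -0.69 to 0.01, limma adjusted p = 0.532) and -0.33, -0.47 and -0.22 by number. Without the block its brightest probe set had an unadjusted p of 0.056 in limma, and another of its probe sets 0.0442. Differences of the other 4 genes were 0.19 (TAPBP), 0.04 (TAP1 and PSMB9) and -0.03 (PSMB8), each within its standard error of 0.14 to 0.22.

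The signals were also read by replicate number. Mean signals over the 3 groups at numbers 1, 2 and 3 were 7.57, 7.11 and 7.11 for PSMB9, 6.82, 6.69 and 7.06 for TAP2, and 8.42, 8.24 and 8.13 for PSMB8. In the F test for the number in a limma fit with group, 0 of the 6 were called (0% of all probe sets), and TAP2 (unadjusted p = 0.0138, adjusted p = 0.249) and PSMB9 (unadjusted p = 0.0185, adjusted p = 0.256) were the 2 under 0.05 before adjustment, where 16% of all probe sets were. The labels call the number a biological replicate and do not say what arrays of 1 number share.

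Over the 9 arrays TAP2 differed in the sign of its correlations from the other genes. The 10 pairs among B2M, TAP1, TAPBP, PSMB8 and PSMB9 had Pearson r between 0.419 and 0.838, and the 5 pairs with TAP2 between -0.781 and 0.0134, of which 4 were negative. By the exact permutation test over 9 arrays, adjusted over the 15 pairs, 4 pairs had an adjusted p under 0.05. PSMB8 and PSMB9 gave r = 0.838 (exact permutation p = 0.00827, adjusted p = 0.0485; Spearman 0.867, p = 0.00451, adjusted p = 0.0338), and r = 0.669 without the 2 arrays farthest from the median of PSMB8. TAPBP and PSMB9 gave r = 0.789 (exact permutation p = 0.0129, adjusted p = 0.0485; Spearman 0.833, p = 0.00827, adjusted p = 0.0413), and r = 0.589 without 2 arrays. TAP1 and TAPBP gave r = 0.769 (exact permutation p = 0.00489, adjusted p = 0.0485; Spearman 0.887, p = 0.00247, adjusted p = 0.0338), and r = 0.71 without 2.

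B2M and TAP2, a chain of the final complex and an arm of the transporter, ran opposite to each other, with r = -0.781 (exact permutation p = 0.0112, adjusted p = 0.0485; Spearman -0.733, p = 0.0311, adjusted p = 0.0778) and r = -0.864 without 2 arrays. After each group's mean was taken off, r was -0.783 for this pair, and 0.839, 0.703 and 0.662 for the 3 above. The arrays are isolations of 3 cell pools and share replicate numbers, so they are not 9 independent cultures, and with 3 arrays a number or group no r was computed inside one.

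**Figure D4:**
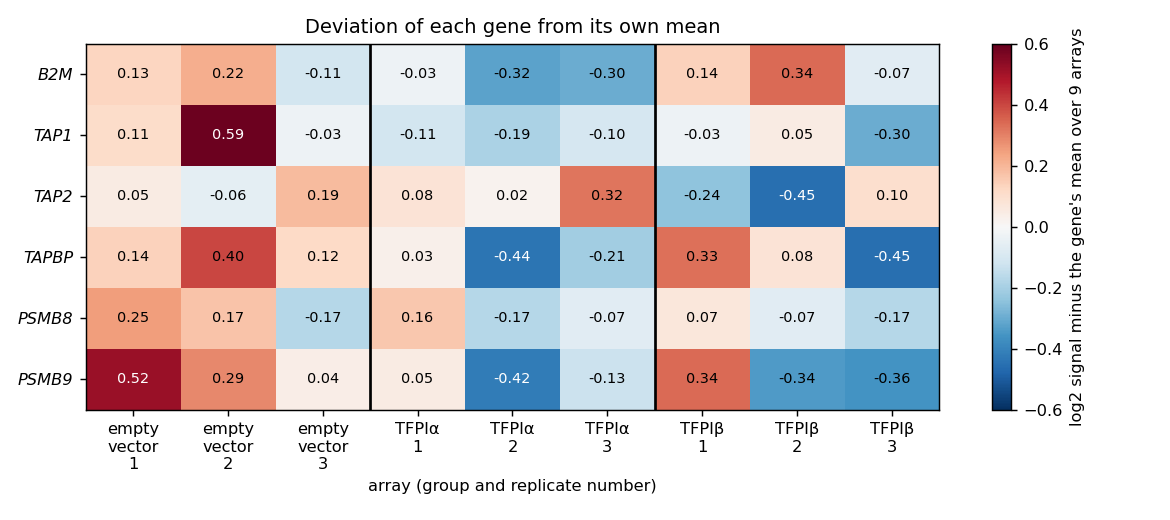
Log2 signal of each gene (rows) minus its own mean over 9 arrays, in each array (columns, by group and replicate number), red above and blue below. TAP2 is lowest at TFPIβ replicate 2 (-0.45), where B2M is highest (0.34), and empty vector replicate 2 holds the highest deviations of TAP1 (0.59) and TAPBP (0.40).

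The 6 genes were also read against the arrays as a whole. The first principal component of all probe sets past the filter took 45.5% of the variance, and its scores ran from -35.23 (TFPIα replicate 3) to 38.39 (TFPIβ replicate 2) with TFPIα (-35.23 to -8.24) below empty vector (2.46 to 34.56) without overlap and TFPIβ (-26.80 to 38.39) across both. Pearson r with this component over 9 arrays was 0.914 for B2M, 0.828 for TAPBP and 0.725 for TAP1, and -0.773 for TAP2 (exact permutation, p adjusted over 6 genes 0.0061, 0.0177, 0.0177 and 0.0177; Spearman 0.833, 0.767, 0.762 and -0.767, adjusted p = 0.0321 each). Without the 2 outermost arrays these r were 0.832, 0.956, 0.879 and -0.505. PSMB8 and PSMB9 gave 0.421 and 0.402 (exact permutation adjusted p = 0.275 each; Spearman 0.483 and 0.4, adjusted p = 0.233 and 0.291), and 0.608 and 0.798 without the same 2 arrays. These genes are themselves among the probe sets behind the component. With 45.5% of the variance in it, many other probe sets follow it too, and the share of them at such an r was not counted. The values therefore do not set these genes apart from others. The part of the component in the differences between groups was not tested.

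The genes most like the mean standardised profile of the 6 were, of 11226 genes compared, APOL1 (Pearson r = 0.955 over 9 arrays), MSRB1 (0.950), CLTCL1 (0.950), FHIP2B (0.943), CADM3 (0.942) and TRANK1 (0.939). APOL1, an apolipoprotein of innate immunity, differed from empty vector by -0.63 in TFPIα and -0.60 in TFPIβ on the log2 scale. Of the 6 genes, PSMB9 (0.914), TAPBP (0.892), PSMB8 (0.878) and TAP1 (0.826) were close to their own mean profile, B2M (0.623) less so and TAP2 (-0.146) not. Each of the 6 is part of that profile, which raises its r by construction. The profile was highest in empty vector replicates 2 (1.04) and 1 (0.80) and lowest in TFPIα replicate 2 (-0.96) and TFPIβ replicate 3 (-0.78).

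The other genes of the pathway were read by lists. In none of the lists below was a gene called in either comparison by limma, and all log2 differences are given as values. Among 6 measured partners of the loading complex, 5 were below empty vector in TFPIα (median -0.11) and 6 in TFPIβ (median -0.26). TAPBPL, a second peptide editor related to tapasin, had the lowest values (-0.65 and -0.43, limma adjusted p = 0.347 and 1.0), followed by UGGT1, which checks glycoprotein folding (-0.26 and -0.39). The chaperone CALR stood highest in both (0.29 and -0.08), followed in TFPIα by HSPA5 (-0.06) and in TFPIβ by the chaperone CANX (-0.10).

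Of 4 measured peptidases that trim or destroy peptides, 2 were below empty vector in TFPIα (median -0.04) and 2 in TFPIβ (median -0.05). ERAP1, the aminopeptidase that trims peptides in the endoplasmic reticulum to class I length, had the lowest value in both, at -0.63 ± 0.15 (limma unadjusted p = 0.00275, adjusted p = 0.335) and -0.61 ± 0.15 (unadjusted p = 0.00333, adjusted p = 0.801). The cytosolic peptidases were nearer 0 or above, with NPEPPS at -0.20 and 0.01, TPP2 at 0.11 and -0.11 and THOP1 at 0.42 and 0.01.

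The proteasome around PSMB8 and PSMB9 lay on the other side of empty vector in TFPIα. All 3 constitutive catalytic subunits, whose places PSMB8, PSMB9 and PSMB10 take in the immunoproteasome, were above it (PSMB6 0.29, PSMB5 0.26 and PSMB7 0.13, median 0.26), as were 10 of 11 other subunits of the 20S core (median 0.23, from PSMA6 at -0.14 and PSMA2 at 0.06 to PSMB2 at 0.39 and PSMB3 at 0.42). In TFPIβ the medians of both lists were 0.01 and 0.06, with the catalytic subunits from -0.05 (PSMB7) and 0.01 (PSMB6) to 0.11 (PSMB5), and the others from -0.20 (PSMA6) and -0.00 (PSMB4) to 0.15 (PSMA7) and 0.23 (PSMA3). PSMB10, the third immunoproteasome subunit, was at -0.02 and 0.03. Of the 5 measured genes of its list, with the regulator and the assembly factor, 2 were below empty vector in TFPIα (median 0.22) and 2 in TFPIβ (median 0.03). PSME1 of the interferon-inducible activator was lowest in both (-0.28 and -0.05), its partner PSME2 was at 0.22 and 0.04, and the assembly factor POMP was at 0.31 and 0.15. PSME3, the nuclear activator, was highest in TFPIα (0.44) and at -0.03 in TFPIβ. The housekeeping list was also higher in TFPIα, as given above, and its part was not tested.

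Among 7 measured class I-like molecules, 4 were below empty vector in TFPIα (median -0.11) and 4 in TFPIβ (median -0.07). The stress ligands of the natural killer receptor NKG2D were at the high end in TFPIα, MICA at 0.59 ± 0.20 (limma unadjusted p = 0.0173, adjusted p = 0.335) and MICB at 0.56 ± 0.15 (unadjusted p = 0.00462, adjusted p = 0.335), and MR1, which presents vitamin metabolites, at the low end with -0.54, beside HFE of iron uptake at -0.23. In TFPIβ the values were narrower, from HFE (-0.26) and MR1 (-0.25) to MICB (0.14) and another NKG2D ligand, ULBP2 (0.23). ULBP2 was near the filter, with means of 4.86 in TFPIβ, 4.63 in empty vector and 4.48 in TFPIα and a highest array of 5.23. It passed the filter of 5 only through TFPIβ, so its high value there supports no difference.

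Of 19 measured regulators of the class I genes, 11 were below empty vector in TFPIα (median -0.12) and 13 in TFPIβ (median -0.09). IFNGR1, the ligand-binding chain of the interferon γ receptor, had the lowest value in TFPIα at -0.90 ± 0.23 (limma unadjusted p = 0.00454, adjusted p = 0.335), and was at -0.24 in TFPIβ. IRF9, the DNA-binding subunit of the factor that reads the response element printed above, was at -0.59 and -0.35, and NFKB1 was lowest in TFPIβ at -0.38. At the other end stood the kinase JAK2 (0.34) and the receptor chain IFNAR2 (0.18) in TFPIα, and in TFPIβ the CCAAT-binding subunit NFYB (0.17) and the X-box factor RFX5 (0.13). JAK2 was near the filter, with means of 4.68 in TFPIα, 4.34 in empty vector and 4.18 in TFPIβ and a highest array of 5.24. It passed the filter of 5 only through TFPIα, so its high value there supports no difference.

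NLRC5 gave nearly the same log2 signal in every array, 5.12, 5.12 and 5.10 in TFPIα, 5.12, 5.13 and 5.12 in TFPIβ and 5.18, 4.96 and 5.12 in empty vector, just over the filter of 5, and no difference was detectable at that signal. IRF1, an interferon-induced activator, read 5.82, 6.04 and 6.03 in TFPIα, 5.89, 6.55 and 5.97 in TFPIβ and 6.10, 6.54 and 5.73 in empty vector, with overlap throughout (log2 differences -0.16 and 0.01). CIITA, the class II transactivator, was under the filter at 4.27 to 4.43.

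Class II presentation was mostly below the filter, with 3 of 11 genes with a probe set past it. HLA-DMA was at -0.38 and -0.00, HLA-DOA at -0.09 and -0.14, and the lysosomal thiol reductase IFI30 at -0.29 and 0.45 in TFPIα and TFPIβ. Of 17 measured genes of other function that lie in the same major histocompatibility region of chromosome 6, 7 were below empty vector in TFPIα (median 0.12) and 13 in TFPIβ (median -0.08). Their ends in TFPIα were HSD17B8 (-0.39), a steroid dehydrogenase, and the collagen receptor DDR1 (-0.38), against the tubulin TUBB (0.74) and the mitotic kinesin KIFC1 (1.07 ± 0.56, limma adjusted p = 0.4). In TFPIβ they were HSD17B8 and the sialidase NEU1 (-0.21 each), against TUBB (0.06) and DDR1 (0.10).

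**Figure D5:**
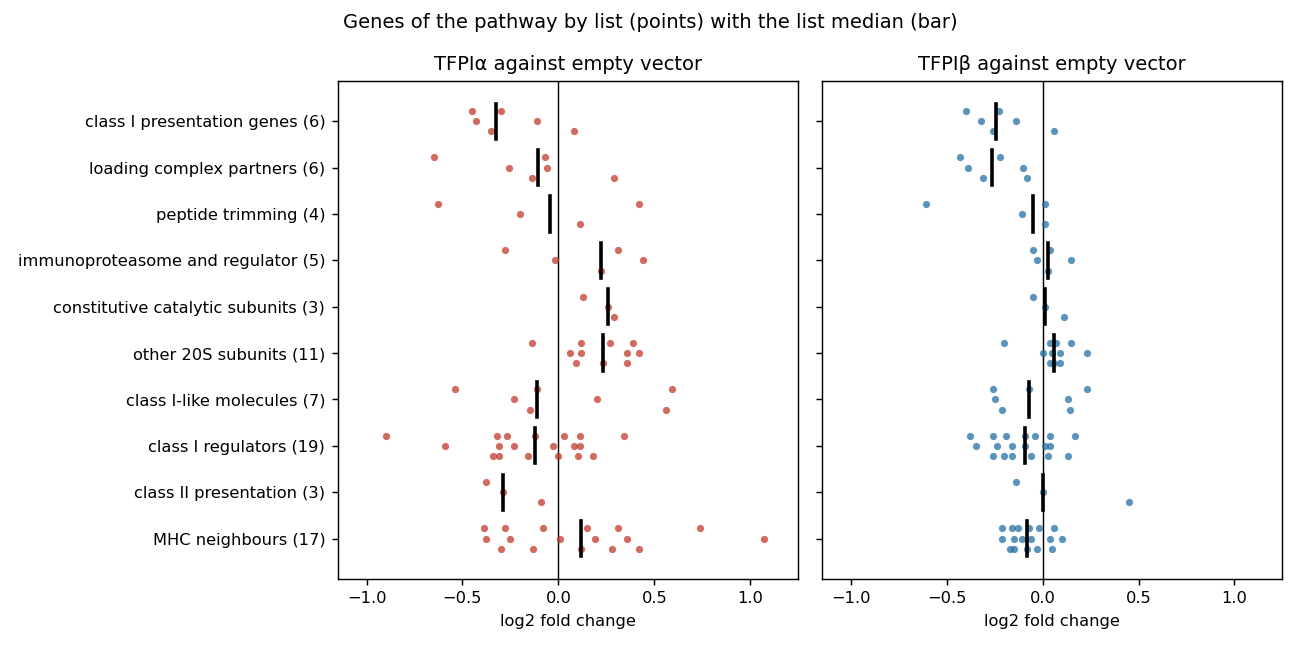
Log2 fold change (x axis) of every measured gene (points, spread vertically for sight) of 10 lists (rows, number of genes in brackets) against empty vector, for TFPIα on the left and TFPIβ on the right, with a black bar at each list's median. In TFPIα the class I presentation genes have their median at -0.33 and the 2 lists of constitutive proteasome subunits theirs at 0.26 and 0.23, and in TFPIβ the medians of the lists lie between -0.26 and 0.06.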

How the data were processed

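Total RNA of 9 isolations was measured on 9 arrays, 3 per group. Per the labels and methods, the authors ran RMA inside Partek (versions not given in the sources used here), and the deposited values are log2 signals, with the base read from their range. In 47.7% of the 33297 probe sets some arrays hold tied values. Symbols came from the platform annotation of GEO (19460 probe sets with 1 symbol, 1754 with several, 12083 with none), older list symbols from RefSeq synonyms.

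A filter at a maximum of 5 over the arrays kept 17482 probe sets. One limma model (version 3.58.1, R 4.3.3) held all 3 groups, with p-values adjusted (Benjamini-Hochberg) over all of these; a probe set was called at an adjusted p under 0.05 and a fold of at least 2. Scripts were tested on simulated data. Exact permutation p-values of correlations used scipy 1.17.1, figures matplotlib 3.10.9 in Python 3.11.15. Groups of 3 arrays were not compared by permutation, whose smallest p is 0.1. Arrays have no read depth; their number limits the precision.

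Arrays of 1 replicate number tended to deviate alike. Deviations from the group means correlated at 0.137 to 0.594 in the 9 pairs of 1 number. In the other 18 pairs they correlated at -0.512 to 0.266, so the ranges overlap. The main fit and its standard errors left the number out. The fit with the number as a block was an alternative, beside other filters, scalings, variance models, thresholds, probe sets and each array left out. Members and lists were chosen with earlier results of these data known. Named are all members, the 2 highest and 2 lowest genes of each pathway list in each comparison with empty vector, the regulators NLRC5, IRF1 and CIITA, and the 6 genes nearest the mean profile; PSMB10, PSME2, HLA-L, NPEPPS and TPP2 in one comparison each, and markers, complete a list or a label check. Some genes of the lists are not reported here.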

Additional observations from a re-analysis of the deposited data

Results flagged for a closer look

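B2M and TAP2 were each below empty vector in 1 isoform and above it, by less than their standard error, in the other. B2M differed from empty vector by -0.30 on the log2 scale in TFPIα, with every difference at the same replicate number below 0 (-0.16, -0.54 and -0.19), as in 18.7% of probe sets. In TFPIβ it differed by 0.06 ± 0.14, with every one above 0 (0.02, 0.12 and 0.03). That value came to -0.04 without TFPIβ replicate 2 or empty vector replicate 3. TAP2 differed by 0.08 ± 0.15 in TFPIα, with every one above 0 (0.03, 0.08 and 0.13), and came to -0.01 without TFPIα replicate 3. In TFPIβ it differed by -0.26, with every one below 0 (-0.30, -0.39 and -0.09), as in 13.2% of probe sets, and the mean at -0.13 without TFPIβ replicate 2. For the runs above 0 no share of probe sets is given, so nothing sets them apart from other probe sets. Both comparisons use the same empty vector arrays. The test of TFPIβ against TFPIα itself did not pass for either gene (limma adjusted p = 0.532 for both).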

How the results depend on the processing

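Under every alternative run, 0 of the 6 genes were called in any comparison, and the lowest adjusted p of any of them was 0.123 (limma). Of the recomputed log2 differences 352 kept their sign and 8 turned, all of them on leaving out 1 array and from values near 0: TAP2 in TFPIα came to -0.01 without TFPIα replicate 3, and B2M in TFPIβ to -0.04 without TFPIβ replicate 2 or empty vector replicate 3. In TFPIβ against TFPIα, PSMB8 came to 0.06 without TFPIα replicate 1 and 0.03 without TFPIβ replicate 3, PSMB9 to -0.08 without TFPIα replicate 2 and -0.19 without TFPIβ replicate 1, and TAP1 to -0.03 without TFPIβ replicate 2. Over all arrays left out in turn, these differences ran from -0.01 to 0.14 (TAP2 in TFPIα), from -0.04 to 0.16 (B2M in TFPIβ), and in TFPIβ against TFPIα from -0.10 to 0.06 (PSMB8), from -0.19 to 0.16 (PSMB9) and from -0.03 to 0.14 (TAP1). The 1 transcript called in TFPIα was lost (0 called) in the one-way model, with no signal filter, with arrays centred on their medians, with the replicate block and in fits of 2 groups alone, and leaving out an array gave 0 to 4 calls, the 4 without TFPIα replicate 3. The replicate block called 1 transcript in TFPIβ against TFPIα and changed the call of no member. For replicate number, 2 transcripts were called with no filter and 0 to 1 on leaving out an array. The cause of these moves was not tested. Signals near the filter of 5 (NLRC5, HLA-L, JAK2, ULBP2, HLA-DMA and HLA-DOA) limit what could be seen there.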
